A study of Mus musculus with 12 samples.

Results

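The genes described here are 10 listed as hypoxia-induced. Cells switch on Egln3, Car9, Vegfa, Adm, Slc2a1, Pdk1, Bnip3, Ndrg1 and Ankrd37 when oxygen is short. Hif1a instead encodes a subunit of the factor that raises such genes, and its control lies mostly at the protein. Hif1a and Egln3 belong to the oxygen sensor, and counts of the 10 hypoxia genes include Hif1a. The 10 were taken by symbol from the 24493 genes of the deposited table, and all 10 were found in it. RNA sequencing covered 12 libraries of the mouse pancreatic tumour cells 6649c2, 3 for each of the genotype labels WT, EgfrKO, Klf5KO and Smad4KO. All 4 groups came from tumours grown under the skin of C57BL/6 mice, from which tumour cells were sorted, and no drug or time point is named for any of them. The label of a knockout names the gene and not the allele, the way it was made, or whether the cells were 1 clone or a pool, so what is due to a clone and what to the targeted gene cannot be told apart. The labels also do not say that the 3 libraries of a group came from separate animals, so p-values refer only to the spread among these libraries, which could be technical.

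In cells with enough oxygen, prolyl hydroxylases of the EGLN family mark the alpha subunits of hypoxia-inducible factor (HIF), and the von Hippel-Lindau ubiquitin ligase then sends them to the proteasome. When oxygen falls, the alpha subunit persists, pairs with ARNT and binds DNA at hypoxia response elements, raising genes for glucose uptake, glycolysis, acid export, blood vessel growth and removal of mitochondria. Control of HIF-1 alpha lies mostly at the protein, so the Hif1a transcript does not report how much of the protein is present. Pancreatic tumours are known as poorly perfused tissue in which these target genes are commonly raised.

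The response element has the core ACGTG or GCGTG, which read CACGT and CACGC from the other strand. The 250 bases before each RefSeq start (GRCm38.p6) were searched for both cores on both strands; CACGTG holds ACGTG on each strand and was counted as 2. A window was found for 9 of the 10 genes, Ndrg1 being the exception, and 9 of 9 held at least 1 core, beside 41.5% of the 27025 genes in the same table. The table gives RefSeq starts, and these are not always the first start of the gene in GENCODE M21. For 7 genes a window ended within 100 bases of that start, and 6 of the 7 held a core there. Vegfa was the exception, and counted only through a window whose start lies 7.21 kb inside the gene. The only windows of Ankrd37 and Hif1a belong to starts 5.86 and 6.49 kb inside their genes. Over all windows, ACGTG was present for 7 of the 9 genes, against 18.5% of all genes, and GCGTG for 6, against 30.9%. Such a match is a description of the letters and not evidence of binding. The stretches below belong to the genes on which the results turn, Bnip3 and Slc2a1, which fell in Smad4KO against WT, and Egln3 and Car9, which did not. Capitals mark the cores, the strand is that of the gene, and each runs 5′ to 3′.

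Bnip3 (chr7:138909507-138909756, minus strand): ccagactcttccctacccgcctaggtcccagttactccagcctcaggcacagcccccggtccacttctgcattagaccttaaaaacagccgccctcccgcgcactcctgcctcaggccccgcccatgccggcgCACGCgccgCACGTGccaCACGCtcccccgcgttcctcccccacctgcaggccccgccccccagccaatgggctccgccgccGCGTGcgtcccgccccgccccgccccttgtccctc

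Slc2a1 (chr4:119108495-119108740, plus strand): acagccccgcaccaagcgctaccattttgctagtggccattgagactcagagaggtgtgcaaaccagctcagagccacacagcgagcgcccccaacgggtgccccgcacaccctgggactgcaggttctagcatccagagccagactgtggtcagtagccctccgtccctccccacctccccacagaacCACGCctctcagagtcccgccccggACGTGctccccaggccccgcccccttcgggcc

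Egln3 (chr12:54203875-54204124, minus strand): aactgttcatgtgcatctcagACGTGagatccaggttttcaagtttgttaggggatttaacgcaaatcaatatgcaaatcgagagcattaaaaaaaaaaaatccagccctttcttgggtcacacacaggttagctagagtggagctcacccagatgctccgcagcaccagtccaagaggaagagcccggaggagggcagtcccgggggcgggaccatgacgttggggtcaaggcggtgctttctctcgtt

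Car9 (chr4:43506995-43507024, plus strand): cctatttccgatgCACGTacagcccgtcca

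Bnip3 had 2 matches to ACGTG, which overlap in 1 CACGTG, and 3 to GCGTG. Slc2a1 had 1 of each, Egln3 had 1 ACGTG that begins 229 bases before the start, and Car9 had 1 ACGTG core, on the other strand, that begins 18 bases before the start. For Car9, 60 bases of the window lie past the first Car9 start in GENCODE M21, so only 30 bases around the core are shown. Both pairs of genes thus held a core in the window searched.

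The values are in TPM, a unit that gives each gene its share of the transcripts in a library, corrected for length, so levels of different genes can be compared, but read depth is unknown and no counting error can be given. In bulk RNA, fewer cells of a type and less RNA per cell cannot be told apart. Each library had 12592 to 13141 genes at a TPM of 1 or more. Egfr was lowest in EgfrKO, at 4.29 ± 0.759 TPM (SD, n = 3) against 13.1 ± 0.850 in WT. It was also below every WT library in the libraries labelled Klf5KO (6.93 ± 1.45) and in Smad4KO (7.95 ± 1.88). Smad4 was lowest in Smad4KO, at 30.7 ± 2.39 TPM against 75.5 ± 4.45 in WT. Klf5 did not mark its own group: it read 100.5, 87.8 and 93.2 TPM in the libraries labelled Klf5KO, 97.1, 109 and 130.3 in WT, and 84.9 ± 3.55 in EgfrKO, which was lower than in the libraries labelled Klf5KO. The level of a transcript does not show whether a protein was lost, and these libraries are called by their label throughout.

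Tests were made with limma on log2(TPM + 1) over the 13662 genes that reached a TPM of 1 in at least 3 libraries, with p-values adjusted over all of them by the Benjamini-Hochberg method and a threshold of 0.05. All 10 hypoxia genes passed that filter. Fold changes are log2 differences of TPM + 1 with their standard error (SE). A TPM is a share, and the median gene was 0.14 higher in EgfrKO than in WT, 0.31 higher in the libraries labelled Klf5KO and 0.10 higher in Smad4KO, so calls after median-of-ratios scaling, which brings those medians to 0.00, -0.01 and 0.00, are given where they differ.

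Most of the hypoxia genes were lower in each knockout than in WT. In EgfrKO 8 of 10 fell and 0 rose, where 12% of all tested genes were called lower and 31.3% higher. In the libraries labelled Klf5KO 9 fell and 0 rose, against 11.1% and 55.2% of all genes. In Smad4KO 7 fell and 1 rose, against 17.4% and 32.2%. No hypoxia gene was higher in EgfrKO or in the libraries labelled Klf5KO at an unadjusted p under 0.05 either, by limma. The median change of the 10 genes was -0.81, -1.11 and -0.68. After scaling, 9, 10 and 8 fell, beside 22.2%, 27.5% and 24.7% of all genes, and 0 rose in each, beside 18%, 24.6% and 25.1%, although 1 was higher in Smad4KO at an unadjusted p under 0.05 by limma. Values of all 3 libraries lay below all 3 of WT for 10 genes in EgfrKO (15.9% of all genes), 9 in the libraries labelled Klf5KO (11.9%) and 7 in Smad4KO (20.8%), and above all 3 of WT for 0, 0 and 2 (40.1%, 57.1% and 38.3% of all genes).

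**Figure D1:**
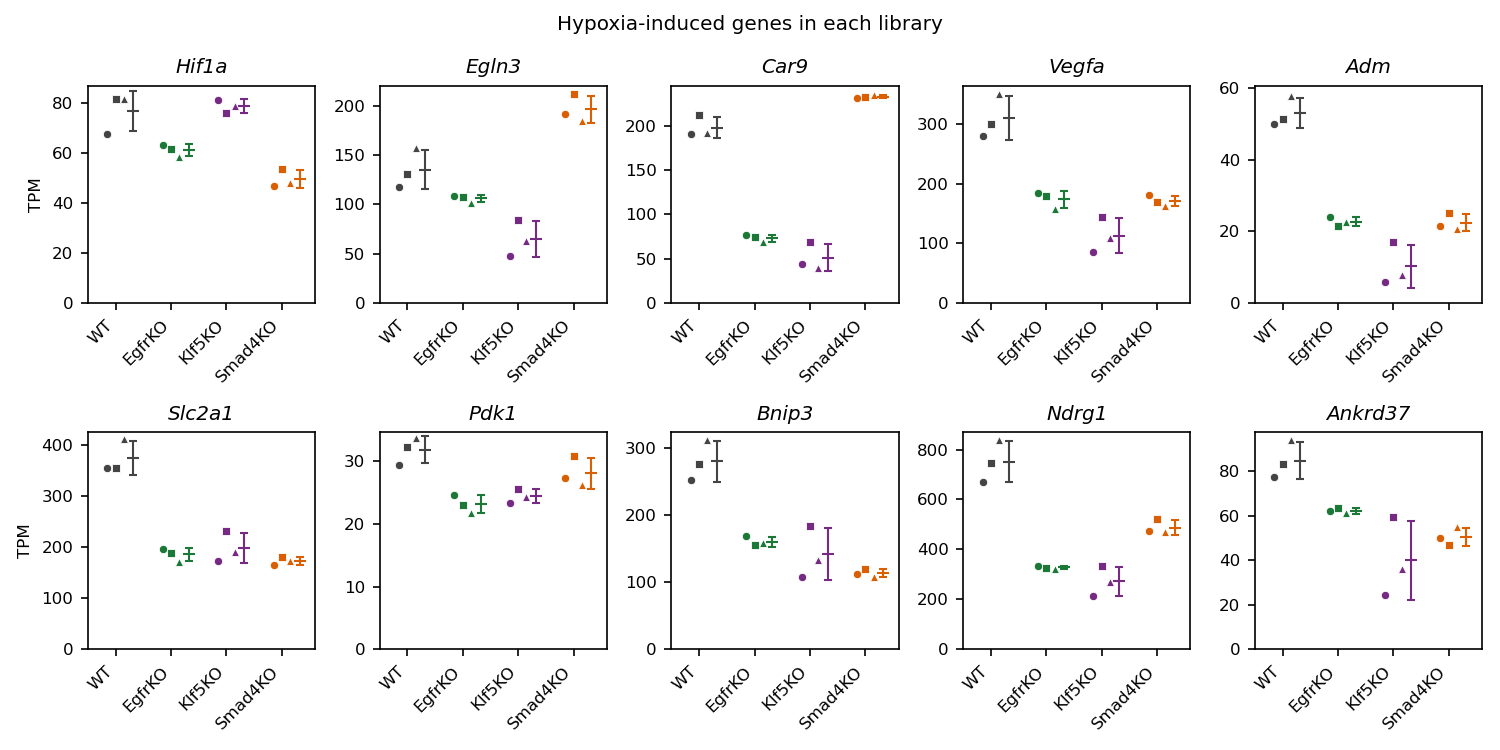
Expression of the 10 hypoxia-induced genes. Each panel plots TPM (vertical axis, from 0) by genotype label; circles, squares and triangles are replicates 1, 2 and 3, and the bar beside them is the mean ± SD of 3 libraries. WT is the highest group for 7 of the panels, whereas Car9 and Egln3 are highest in Smad4KO and Hif1a differs little between WT and the libraries labelled Klf5KO.

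The components of the oxygen sensor moved differently. Hif1a (chr12:73901375-73947530, plus strand) encodes the HIF-1 alpha subunit. Its level was 67.8, 81.6 and 81.5 TPM in the 3 WT libraries, 63.4, 61.7 and 58.6 in EgfrKO, 81.4, 76.1 and 79.0 in the libraries labelled Klf5KO, and 46.8, 53.6 and 48.0 in Smad4KO. Every EgfrKO library thus lay below WT and every Smad4KO library below those of EgfrKO, while the Klf5KO-labelled values fell among those of WT. The log2 fold change against WT was -0.32 ± 0.08 (SE) in EgfrKO (limma adjusted p = 0.0058) and -0.62 ± 0.08 in Smad4KO (4.0e-05). In the libraries labelled Klf5KO it was 0.04 ± 0.08 as deposited (limma adjusted p = 0.6711) and -0.32 after scaling (0.0027), so that the direction of Hif1a there depends on the scale.

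Egln3 (chr12:54178981-54203860, minus strand) encodes the prolyl hydroxylase PHD3, itself a HIF target that acts back on the alpha subunits. It measured 118, 131 and 157 TPM in WT, 109, 108 and 102 in EgfrKO, 48.1, 84.2 and 62.9 in the libraries labelled Klf5KO, and 192, 212 and 185 in Smad4KO. Egln3 was therefore above WT in every Smad4KO library and below WT in every library of the other 2 knockouts. The fold change in Smad4KO was 0.54 ± 0.16 (limma adjusted p = 0.0155). That call was lost after scaling (0.44, adjusted p = 0.0622), without WT replicate 1 (0.45, 0.0611) and without Smad4KO replicate 2 (0.49, 0.0534). Against the other knockouts the excess was larger: Egln3 was higher in Smad4KO than in EgfrKO by 0.88 ± 0.16 (limma adjusted p = 0.0016) and than in the libraries labelled Klf5KO by 1.61 ± 0.16 (4.6e-06). Its decrease of -1.07 ± 0.16 in the libraries labelled Klf5KO passed (adjusted p = 1.3e-04), and its -0.34 ± 0.16 in EgfrKO did not (0.1108; after scaling -0.49, 0.0477). In a fit of only EgfrKO and WT, the decrease in EgfrKO passed (-0.34 ± 0.10, limma adjusted p = 0.0291).

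Car9 (chr4:43506966-43513729, plus strand) encodes carbonic anhydrase IX, a surface enzyme that handles acid outside the cell and is widely used as a marker of hypoxic tumour. The WT libraries had 190.2, 212 and 191 TPM. EgfrKO had 76.1, 74.5 and 68.8, the libraries labelled Klf5KO had 44.4, 68.6 and 39.9, and Smad4KO had 231, 232 and 235. The 3 Smad4KO values were the closest to each other of any group for this gene and lay above all of WT, whereas the other knockouts lay far below. Car9 fell by 1.42 ± 0.15 on the log2 scale in EgfrKO (limma adjusted p = 2.3e-05) and by 1.97 ± 0.15 in the libraries labelled Klf5KO (1.1e-06). In Smad4KO the difference from WT of 0.23 ± 0.15 did not pass (0.2134; 0.0077 without Klf5KO replicate 2). A fit of only Smad4KO and WT gave 0.23 ± 0.05, which passed (limma adjusted p = 0.0086). Smad4KO exceeded EgfrKO by 1.66 ± 0.15 (limma adjusted p = 9.1e-06) and the libraries labelled Klf5KO by 2.21 ± 0.15 (2.0e-07). Both calls held under every alternative setting and every left-out library that was run.

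The secreted factors came next. Vegfa (chr17:46016993-46032369, minus strand) encodes the main growth factor for blood vessels. Its TPM was 280.1, 301 and 351 in WT, 184, 179.9 and 158 in EgfrKO, 86.1, 144 and 109 in the libraries labelled Klf5KO, and 181, 170.2 and 163 in Smad4KO. All 9 knockout libraries were below all 3 of WT, EgfrKO and Smad4KO overlapped, and the Klf5KO-labelled libraries were the lowest. The log2 fold changes against WT were -0.83 ± 0.15 in EgfrKO (limma adjusted p = 0.0011), -1.48 ± 0.15 in the libraries labelled Klf5KO (7.9e-06) and -0.85 ± 0.15 in Smad4KO (6.0e-04). EgfrKO and Smad4KO did not differ past the threshold (-0.02 ± 0.15, adjusted p = 0.9263).

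Adm (chr7:110627661-110629820, plus strand) encodes adrenomedullin, a peptide that widens vessels. It was 50.02, 51.4 and 58.0 TPM in WT, 24.0, 21.6 and 22.7 in EgfrKO, 5.78, 17.1 and 7.79 in the libraries labelled Klf5KO, and 21.4, 25.2 and 20.7 in Smad4KO. Adm had the widest range of the 10 genes, 10.04-fold between its lowest and highest library, and as for Vegfa the Klf5KO-labelled libraries were the lowest and EgfrKO and Smad4KO overlapped. It fell by 1.19 ± 0.26 in EgfrKO (limma adjusted p = 0.0040), by 2.40 ± 0.26 in the libraries labelled Klf5KO (1.4e-05) and by 1.21 ± 0.26 in Smad4KO (0.0026).

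Glucose handling was represented by a transporter and a kinase. Slc2a1 (chr4:119108711-119137983, plus strand) encodes the glucose transporter GLUT1. It was 355, 355 and 413 TPM in WT, 196, 189 and 172 in EgfrKO, 174, 231 and 191 in the libraries labelled Klf5KO, and 166, 182 and 173 in Smad4KO. The knockouts formed 1 band below WT: their ranges overlapped and no pair of them passed the test, with limma adjusted p of 0.1219 to 0.4817. The fold changes from WT were -1.003 ± 0.0977 (limma adjusted p = 1.5e-05), -0.92 ± 0.10 (1.1e-05) and -1.10 ± 0.10 (3.1e-06) in EgfrKO, the libraries labelled Klf5KO and Smad4KO. Pdk1 (chr2:71873224-71903858, plus strand) encodes a kinase that shuts pyruvate out of the mitochondrial cycle. With 29.4, 32.2 and 33.7 TPM in WT, 24.6, 23.0 and 21.8 in EgfrKO, 23.4, 25.5 and 24.2 in the libraries labelled Klf5KO and 27.3, 30.8 and 26.1 in Smad4KO, it moved least among the 9 targets. It fell by 0.44 ± 0.08 in EgfrKO (limma adjusted p = 8.9e-04) and by 0.37 ± 0.08 in the libraries labelled Klf5KO (0.0013). Smad4KO overlapped WT, at -0.17 ± 0.08 as deposited (adjusted p = 0.0828) and -0.28 after scaling (0.0074).

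Bnip3 (chr7:138890836-138909519, minus strand) encodes a receptor on mitochondria that directs their removal by autophagy. It was 253, 276 and 313 TPM in WT, 169, 155 and 158 in EgfrKO, 108, 185 and 133 in the libraries labelled Klf5KO, and 113, 119.5 and 108 in Smad4KO. Smad4KO had the lowest mean, below every EgfrKO library, but its values overlapped those of the libraries labelled Klf5KO, from which it did not differ past the threshold (-0.29 ± 0.15, limma adjusted p = 0.1137; after scaling -0.04, 0.8573). Bnip3 fell by 0.79 ± 0.15 (limma adjusted p = 0.0014), 1.01 ± 0.15 (1.2e-04) and 1.29 ± 0.15 (2.6e-05) in EgfrKO, the libraries labelled Klf5KO and Smad4KO. Within a library, a ratio of 2 genes is free of the scaling. Car9 over Bnip3 was 0.710 ± 0.0860 in WT (SD, n = 3), 0.455 ± 0.0235 in EgfrKO, 0.361 ± 0.0569 in the libraries labelled Klf5KO and 2.05 ± 0.118 in Smad4KO. Egln3 over Bnip3 was 0.481 ± 0.0183, 0.661 ± 0.0306, 0.458 ± 0.0130 and 1.73 ± 0.0391. Both ratios were highest in all 3 Smad4KO libraries, so the changes of these genes were unequal there on any scale. Over Vegfa the gap was smaller. Car9 over Vegfa was 0.643 ± 0.0858 in WT and 1.36 ± 0.0820 in Smad4KO, and Egln3 over Vegfa 0.435 ± 0.0128 and 1.15 ± 0.0911. The pairs were chosen with earlier results of these data known.

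Ndrg1 (chr15:66929318-66969640, minus strand) encodes a stress-responsive protein of the cytoplasm and was the most abundant of the 10. It was 672, 745 and 837 TPM in WT, 334, 326 and 323 in EgfrKO, 215, 333 and 268 in the libraries labelled Klf5KO, and 472, 521 and 469 in Smad4KO. Smad4KO stood between WT and the other knockouts without overlap on either side. The fold changes from WT were -1.19 ± 0.13 (limma adjusted p = 2.9e-05), -1.48 ± 0.13 (2.7e-06) and -0.62 ± 0.13 (0.0018), and Smad4KO was above EgfrKO by 0.57 ± 0.13 (0.0053). Ankrd37 (chr8:45996902-46005707, minus strand) encodes an ankyrin repeat protein and is a direct HIF-1 target. It was 77.4, 82.9 and 93.7 TPM in WT, 62.0, 63.5 and 61.0 in EgfrKO, 24.4, 59.2 and 36.2 in the libraries labelled Klf5KO, and 50.1, 46.6 and 54.8 in Smad4KO. No knockout library reached the lowest of WT. The decrease passed in the libraries labelled Klf5KO (-1.15 ± 0.23, limma adjusted p = 8.3e-04) and in Smad4KO (-0.73 ± 0.23, 0.0182), where it was lost without WT replicate 3 (0.0620) or Smad4KO replicate 2 (0.0559), and missed in EgfrKO (-0.44 ± 0.23, 0.1395). The SE is pooled over all groups, of which the libraries labelled Klf5KO spread most. A fit of only EgfrKO and WT gave -0.44 ± 0.07, which passed (limma adjusted p = 0.0032). Its exons share 349 bases with Lrp2bp, at 0.216 TPM on average, and 57 with Ufsp2, at 39.6 TPM, both on the opposite strand, and the labels do not say whether the quantification used strand.

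**Figure D2:**
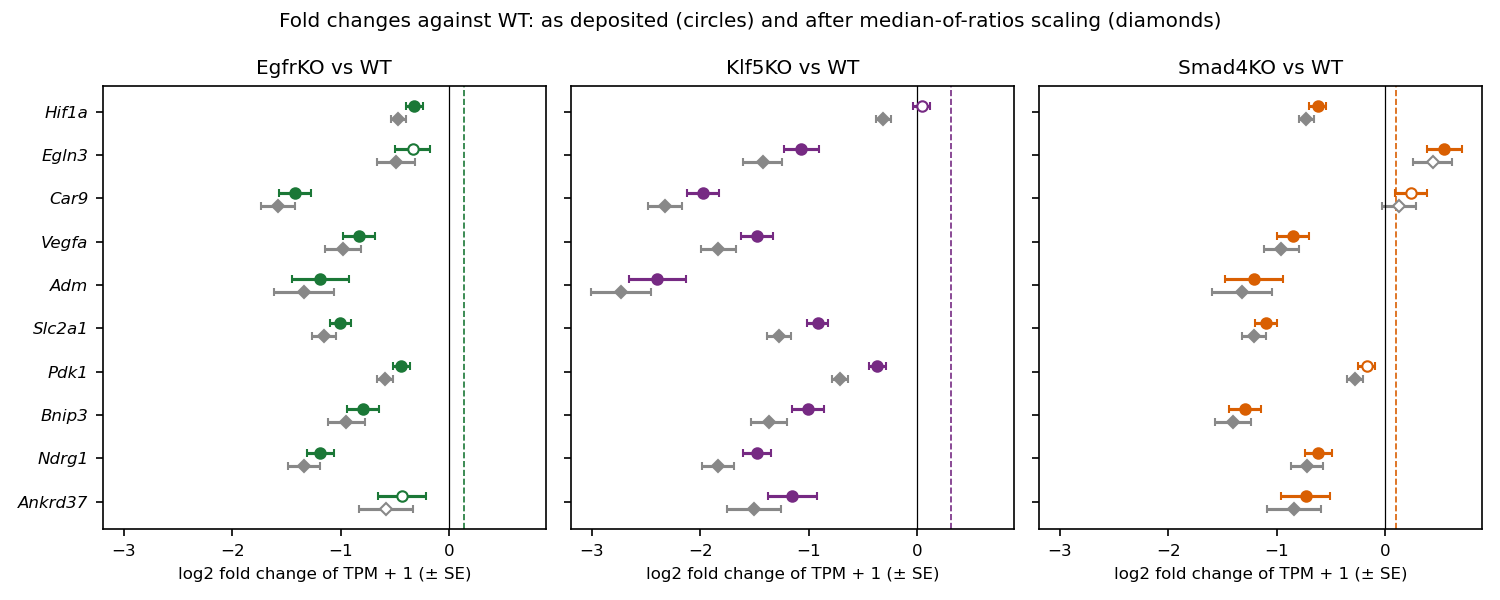
Log2 fold changes of TPM + 1 against WT (horizontal axis, ± SE) for the 10 genes in EgfrKO, the libraries labelled Klf5KO and Smad4KO. Circles are deposited TPM, diamonds are values after median-of-ratios scaling, filled symbols passed an adjusted p of 0.05 in limma, and the dashed line is the median of all tested genes (0.14, 0.31 and 0.10); Egln3 and Car9 lie to the right of 0 in the Smad4KO panel.

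Adm, Bnip3, Ndrg1, Slc2a1 and Vegfa were lower than WT in all 3 knockouts, 5 of the 10, where 444 of 13662 tested genes were (3.25%). After scaling, Hif1a and Pdk1 joined them, 7 of 10 beside 8% of all genes. The 3 contrasts share the WT libraries.

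Compared with each other, the knockouts had their own order. Between the libraries labelled Klf5KO and EgfrKO, 5 of the 10 genes were lower in the former (Car9, Vegfa, Adm, Egln3 and Ankrd37) and 1, Hif1a, was higher, beside 14.7% and 40.5% of all genes. Between Smad4KO and EgfrKO, 2 were lower (Bnip3 and Hif1a) and 4 higher (Car9, Ndrg1, Egln3 and Pdk1), beside 18.7% and 14.5%. Between Smad4KO and the libraries labelled Klf5KO, 1 was lower (Hif1a) and 6 higher (Car9, Vegfa, Adm, Ndrg1, Egln3 and Pdk1), beside 45.5% and 18.3%. After scaling the counts lower and higher were 6 and 0 (26.4% and 25.3% of all genes), 1 and 4 (16.5% and 19.6%), and 1 and 7 (29.1% and 31.2%), with 1 gene higher in the libraries labelled Klf5KO than in EgfrKO at an unadjusted p under 0.05 by limma. On that scale Hif1a no longer differed past the threshold between the libraries labelled Klf5KO and EgfrKO, nor Bnip3 between Smad4KO and EgfrKO. Car9, Egln3, Ndrg1 and Pdk1 were thus higher in Smad4KO than in either other knockout on both scales. The excess of Pdk1 was small, 0.27 ± 0.08 over EgfrKO (limma adjusted p = 0.0195) and 0.19 ± 0.08 over the libraries labelled Klf5KO (0.0443). The first call was lost without EgfrKO replicate 2 or 3 or Smad4KO replicate 2 (0.0562, 0.0680 and 0.0757), and the second without any 1 of 6 libraries, WT replicate 2, EgfrKO replicate 2, Klf5KO replicates 1 and 3 and Smad4KO replicates 1 and 2 (0.0575 to 0.1756). Vegfa, Adm, Car9 and Egln3 were each lower in the libraries labelled Klf5KO than in any other group on both scales.

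For 8 of the 10 genes the libraries labelled Klf5KO had the widest spread of the 4 groups by coefficient of variation, from 14.9% for Slc2a1 to 59.05% for Adm. For Hif1a (3.37%) and Pdk1 (4.485%) theirs was the narrowest. Replicate 2 was the highest of the 3 for 9 of the 10 genes, with Hif1a the exception. Its level was 2.52 times the mean of the other 2 for Adm, 1.95 times for Ankrd37 and 1.63 times for Car9, and 1.07 times for Pdk1. The same library had the lowest summed level of 8 fibroblast genes in its group, 291 TPM against 370.7 and 612, and the highest summed level of 10 immediate early and heat shock genes that sorting can induce, 1981 against 1310 and 1375.

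**Figure D3:**
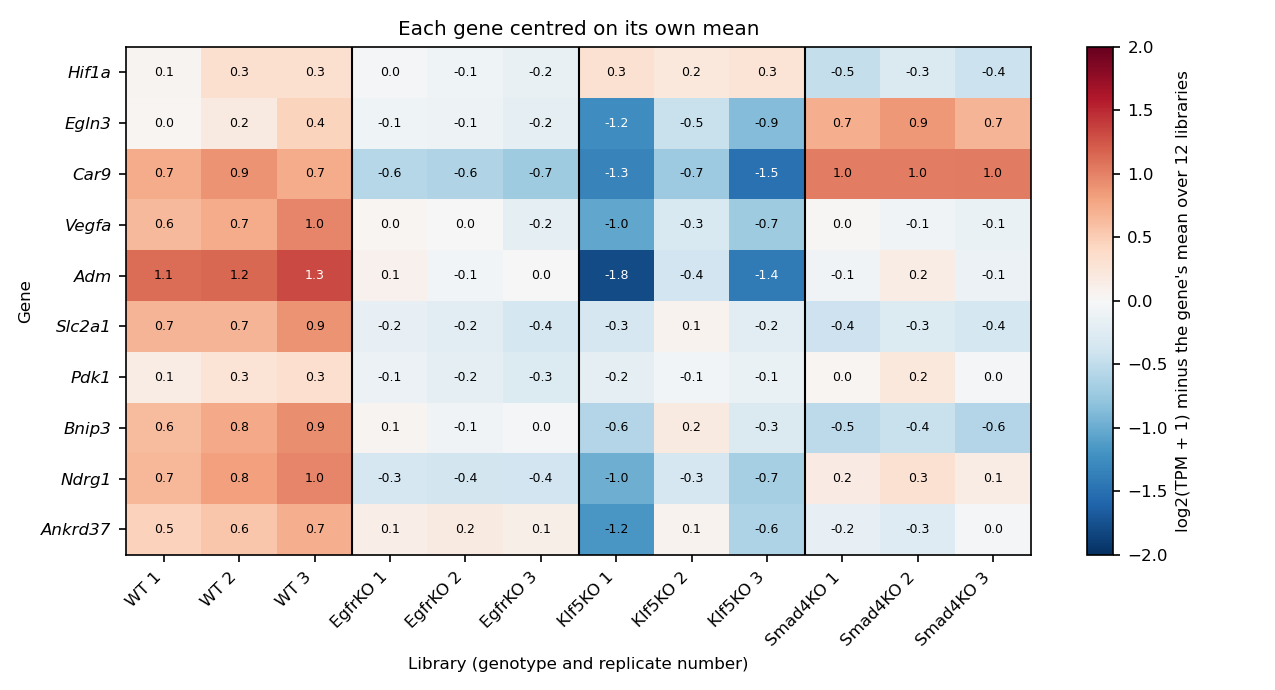
The 10 genes (vertical axis) in the 12 libraries (horizontal axis), as log2(TPM + 1) minus the gene's mean over all 12; the number in each cell is that difference, red above and blue below the mean. WT is red for all 10 genes apart from near 0 for Egln3 and Hif1a in replicate 1, Smad4KO is above the mean in all 3 libraries for Car9, Egln3 and Ndrg1, and replicate 2 of the libraries labelled Klf5KO is above its partners for 9 genes.

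Other genes of the pathway were read in lists. Their counts stand beside the shares of all tested genes given above, which were 12%, 11.1% and 17.4% lower and 31.3%, 55.2% and 32.2% higher in EgfrKO, the libraries labelled Klf5KO and Smad4KO. Of 15 genes of the HIF machinery 14 were tested, and as deposited some were called in each direction: 3 were lower and 2 higher in EgfrKO, 3 and 6 in the libraries labelled Klf5KO, and 3 and 5 in Smad4KO, with medians of -0.06, 0.07 and 0.16. After scaling, 6 were lower and 0 higher in EgfrKO, 7 and 3 in the libraries labelled Klf5KO, and 3 and 4 in Smad4KO. The scaled shares of all genes were 22.2%, 27.5% and 24.7% lower and 18%, 24.6% and 25.1% higher. Cited2, which competes with HIF for the coactivator p300, was 84.1 ± 6.81 TPM in WT, 44.2 ± 0.603 in EgfrKO, 63.5 ± 14.3 in the libraries labelled Klf5KO and 41.9 ± 4.06 in Smad4KO. Cited2 passed the test in each contrast with WT. Egln1, the main oxygen-sensing hydroxylase, fell by 0.48 on the log2 scale in EgfrKO (limma adjusted p = 0.0013) and by 0.72 in Smad4KO (4.6e-05), where Egln2, its paralogue, rose by 0.33 (8.5e-04). In the libraries labelled Klf5KO, Ep300 rose by 0.67 (8.9e-05), Cul2, a scaffold of the von Hippel-Lindau ligase, by 0.64 (5.2e-05), and Hif1an, which blocks coactivator binding, by 0.62 (7.4e-05). Those 3 increases held after scaling.

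The alpha subunit genes moved in opposite directions in Smad4KO. Epas1, which encodes HIF-2 alpha and was chosen after its values were seen, was 2.01 ± 0.242 TPM in WT, 1.41 ± 0.0200 in EgfrKO, 1.96 ± 0.352 in the libraries labelled Klf5KO and 6.07 ± 0.738 in Smad4KO. It rose by 1.23 ± 0.12 against WT (limma adjusted p = 8.2e-06), by 1.55 ± 0.12 against EgfrKO (3.5e-06) and by 1.26 ± 0.12 against the libraries labelled Klf5KO (3.9e-06), all of which passed after scaling too. Hif1a fell in the same 3 contrasts, as given above, and remained the more abundant subunit gene in every group.

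Hypoxia targets outside the 10 genes went down in most cases. Of 36 tested among 38 in the table, 26 were lower and 1 higher in EgfrKO, 21 and 6 in the libraries labelled Klf5KO, and 27 and 3 in Smad4KO, with medians of -0.55, -0.35 and -0.52. After scaling these counts were 29 and 1, 27 and 2, and 29 and 3, beside the scaled shares given above. Slc16a3, the lactate exporter MCT4, had 105 ± 8.49 TPM in WT, 26.0 ± 1.54 in EgfrKO, 66.0 ± 5.86 in the libraries labelled Klf5KO and 25.9 ± 1.81 in Smad4KO. Hilpda, a lipid droplet protein, went from 353 ± 34.0 TPM in WT to 164 ± 9.22, 97.5 ± 34.1 and 146 ± 8.92. Pfkfb3, which drives glycolytic flux, went from 39.8 ± 3.64 to 16.6 ± 1.30, 15.1 ± 3.65 and 18.7 ± 0.773. Slc16a3, Hilpda and Pfkfb3 passed the test in all 3 contrasts with WT. Hmox1, heme oxygenase, fell by 1.65 in Smad4KO (limma adjusted p = 1.0e-05), and Vldlr, a lipoprotein receptor, by 1.17 in EgfrKO (2.4e-05).

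The stanniocalcins, secreted glycoproteins on the same list, went against each other. Stc1 was 22.7 ± 3.61 TPM in WT and 82.9 ± 11.6 in the libraries labelled Klf5KO, and it was 11.7 ± 1.40 in EgfrKO and 6.38 ± 0.184 in Smad4KO. Stc2 was 5.18 ± 0.910 in WT, 2.83 ± 0.620 in EgfrKO, 0.594 ± 0.296 in the libraries labelled Klf5KO and 13.1 ± 0.904 in Smad4KO. Both passed the test in each contrast with WT, and Stc2 took the order of Car9 and Egln3. The 3 listed targets that rose in Smad4KO were Stc2, Edn1 (endothelin-1) and Tfrc (the transferrin receptor), the last 2 named after their values were seen. In Smad4KO Edn1 reached 5.62 ± 0.654 TPM, from 1.40 ± 0.355 in WT.

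Of 16 glycolysis enzymes, 12 were lower and 1 higher in EgfrKO, 12 and 1 in the libraries labelled Klf5KO, and 11 and 2 in Smad4KO, with medians of -0.35, -0.37 and -0.42, smaller changes than those of the 10 genes. Pgk1, phosphoglycerate kinase, was 1138 ± 127 TPM in WT, 768 ± 28.3 in EgfrKO, 761 ± 56.3 in the libraries labelled Klf5KO and 679.9 ± 34.9 in Smad4KO. Hk2, the inducible hexokinase, was 115 ± 11.8 in WT and 76.0 ± 5.22, 72.2 ± 3.79 and 71.1 ± 5.22 in the knockouts in that order. Both passed in all 3 contrasts with WT. The exceptions were Hk1 in the libraries labelled Klf5KO, Pfkm in EgfrKO and Smad4KO, and Aldoc in Smad4KO, which rose; Aldoc fell by 0.64 in the libraries labelled Klf5KO (limma adjusted p = 2.8e-05). After scaling, Pfkm in Smad4KO was the only one of these increases that passed, while 12, 15 and 12 enzymes fell.

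**Figure D4:**
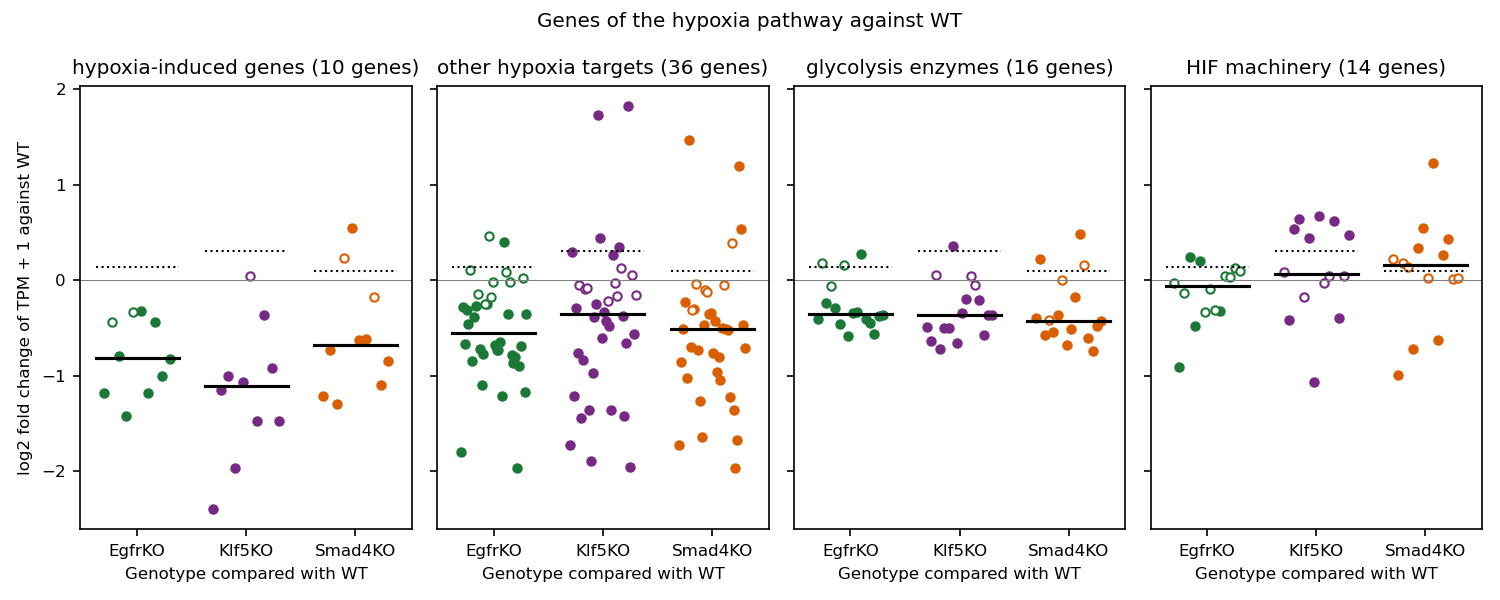
Log2 fold changes of TPM + 1 against WT (vertical axis) for the 10 hypoxia-induced genes, 36 other targets, 16 glycolysis enzymes and 14 genes of the HIF machinery, by knockout label (horizontal axis). Filled points passed an adjusted p of 0.05 in limma, the solid bar is the list's median and the dotted bar the median of all tested genes; Hif1a and Egln3 appear both among the 10 genes and in the machinery, and the target and enzyme medians lie below the dotted bars in each knockout.

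Partners of Vegfa and Adm, the other ligands and the receptors of both systems, were also called in both directions. Of 13 tested among 14 in the table, 4 were lower and 2 higher in EgfrKO, 3 and 4 in the libraries labelled Klf5KO, and 7 and 2 in Smad4KO, or 4 and 1, 4 and 4, and 9 and 1 after scaling. Pgf, another ligand of the VEGF family, fell by 0.50, 1.69 and 0.90 in these 3 contrasts (limma adjusted p = 0.0157, 2.3e-06 and 2.8e-04). Vegfc, the lymphatic growth factor, rose by 1.36 in the libraries labelled Klf5KO (2.8e-07), from 29.2 ± 3.70 to 76.1 ± 5.05 TPM, and was 21.2 ± 0.406 in Smad4KO. Ramp3, which makes the calcitonin receptor-like receptor respond to adrenomedullin, was 3.23 ± 1.06 TPM in WT, 4.77 ± 0.610 in EgfrKO, 1.55 ± 1.36 in the libraries labelled Klf5KO and 37.5 ± 3.14 in Smad4KO. Ramp3 rose in Smad4KO against each other group, with limma adjusted p of 3.6e-06, 3.2e-05 and 3.5e-07 for WT, EgfrKO and the libraries labelled Klf5KO. The receptor itself, Calcrl, stood at 0.440 ± 0.0569 TPM in Smad4KO, from 1.71 ± 1.01 in WT.

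For each gene whose group means spanned at least 1 on the log2 scale, the 2 tested genes with the nearest profile over the 12 libraries were listed by the root mean square (RMS) difference of their centred log2 values. For Vegfa they were Nupr1 (0.06), a stress-induced chromatin protein, and Higd1a (0.11), a mitochondrial hypoxia protein. For Bnip3 they were Dusp10 (0.15) and Ddit4 (0.16), the latter an inhibitor of mTORC1 induced by hypoxia, and for Ndrg1 they were Ero1l (0.17), an oxidase of the endoplasmic reticulum, and Fam20a (0.19). For Adm they were Atf3 (0.24) and Fos (0.26), both of which are among the immediate early genes described next, and for Ankrd37 Gadd45g (0.13) and Zfp36 (0.20). Slc2a1 was nearest to Rab7b (0.12) and Clca3b (0.13). Car9 was nearest to Oplah (0.20) and Cidea (0.23), and Egln3 to Plin4 (0.14) and Btg2 (0.21). Being picked to match these profiles, they did not fall in Smad4KO either. Oplah was 20.7 ± 0.484 TPM in WT and 21.3 ± 1.26 in Smad4KO, and Plin4, a lipid droplet protein, 2.08 ± 0.218 and 4.21 ± 0.324. The 1 added to each TPM shrinks changes at such low levels. Plin4 was 2.02 times WT in Smad4KO and 0.24 times in the libraries labelled Klf5KO, against 1.45 and 0.48 for Egln3. Rab7b and Clca3b were low too, at 4.68 ± 0.185 and 2.63 ± 0.696 TPM in WT. Among the 10 genes themselves the nearest pair was Bnip3 and Slc2a1 (0.17), while the nearest to Car9 was Egln3 at 0.46. Hif1a and Pdk1 spanned less than 1 and were not matched. Profiles from the same 12 libraries share their scaling and their composition.

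Genes that sorting and tissue dissociation can induce moved with the hypoxia genes. The 10 listed (Fos, Fosb, Jun, Junb, Egr1, Atf3, Ier2, Hspa1a, Hspa1b and Dusp1) summed to 2881 to 3676 TPM in WT, 1920 to 2062 in EgfrKO, 1310 to 1981 in the libraries labelled Klf5KO and 1611 to 1727 in Smad4KO. Against WT 9, 10 and 9 of them were lower, beside 12%, 11.1% and 17.4% of all genes. After scaling 10 were lower in each, beside 22.2%, 27.5% and 24.7%. In fits with their mean log2 level as a covariate, 3 hypoxia genes were lower in EgfrKO (Car9, Ndrg1 and Slc2a1), 0 in the libraries labelled Klf5KO and 0 in Smad4KO, beside 3.36%, 0.776% and 3.7% of all genes, and 2, Car9 and Egln3, were higher in Smad4KO, beside 5.63%; at an unadjusted p under 0.05, limma gave 1 lower in the libraries labelled Klf5KO and 2 in Smad4KO. Calls over all genes dropped in the same fits, to 8.96%, 2.29% and 9.33%. The covariate ran from 7.79 to 8.19 in WT and from 6.23 to 7.15 in the knockouts with no overlap, so the decrease of the hypoxia genes against WT cannot be told apart from that of the stress genes. The excess of Car9 and Egln3 in Smad4KO over the other knockouts passed with this covariate as without it.

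Markers of the cells that the sort could hold were read in the same way. Epithelial markers, led by Krt18 and Krt8, summed to 4701 TPM or more in each library. Of the 8, 6 were lower and 1 higher in the libraries labelled Klf5KO than in WT, beside 11.1% and 55.2% of all genes. In Smad4KO 7 were higher and 1 lower, beside 32.2% and 17.4%. After scaling 7 were lower and 1 higher in the libraries labelled Klf5KO, beside 27.5% and 24.6%. The 8 fibroblast markers, led by Col1a1 and Col1a2, summed to 54.0 to 136 TPM in WT, 120 to 129.5 in EgfrKO, 291 to 612 in the libraries labelled Klf5KO and 51.1 to 77.0 in Smad4KO. Of these, 8 of 8 were higher in the libraries labelled Klf5KO than in WT, beside 55.2% of all genes. After scaling 5 of 8 were higher, beside 24.6%. With their mean as a covariate, 8 and 7 hypoxia genes were lower in EgfrKO and Smad4KO, beside 11.5% and 14.8% of all genes, and 2, Car9 and Ndrg1, in the libraries labelled Klf5KO, beside 2.69%. That covariate ran from 3.99 to 4.75 in the libraries labelled Klf5KO and from 2.29 to 3.29 in the other groups. With no overlap, the effect of this label cannot be told apart from that of the fibroblast markers. Macrophage markers, led by Lyz2 and C1qa, summed to 733 to 1459 TPM in WT, 1234 to 1331 in EgfrKO, 1043 to 1668 in the libraries labelled Klf5KO and 182 to 804 in Smad4KO, where replicate 2 was the low one. Markers of all leukocytes, led by Laptm5 and Cd52, summed to 50.3 to 235 TPM over the 12 libraries. Endothelial markers summed to 14.6 TPM or less, and T and NK cell markers to 14.9 or less. Neutrophil markers summed to 10.4 to 16.2 TPM in EgfrKO and 10.7 to 22.2 in WT. Red cell markers summed to 55.2 to 63.3 in EgfrKO and 46.3 to 121 in WT. Of these, Ly6g, of neutrophils, and Hbb-bs, of red cells, were listed at 0 in all 3 EgfrKO libraries. Hbb-bs was near 0 in the other groups too, with a mean of 4.32e-09 TPM in Smad4KO. Car9 stayed higher in Smad4KO than in either other knockout with the fibroblast covariate and with that of the leukocyte markers. With the fibroblast covariate the excess of Egln3 was 0.42 ± 0.17 over EgfrKO and 0.48 ± 0.33 over the libraries labelled Klf5KO, and that of Ndrg1 was 0.21 ± 0.13 and -0.04 ± 0.26, none of which passed (limma adjusted p = 0.0937, 0.3673, 0.2833 and 0.9415). With the leukocyte covariate the excess over EgfrKO was about as large as without it, at 0.86 ± 0.27 for Egln3 and 0.56 ± 0.22 for Ndrg1, but the SE was larger and neither passed (0.0635 and 0.1168). The excess of Pdk1 did not pass with either covariate. What part these cells had in the hypoxia gene levels was not tested beyond these fits.

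**Figure D5:**
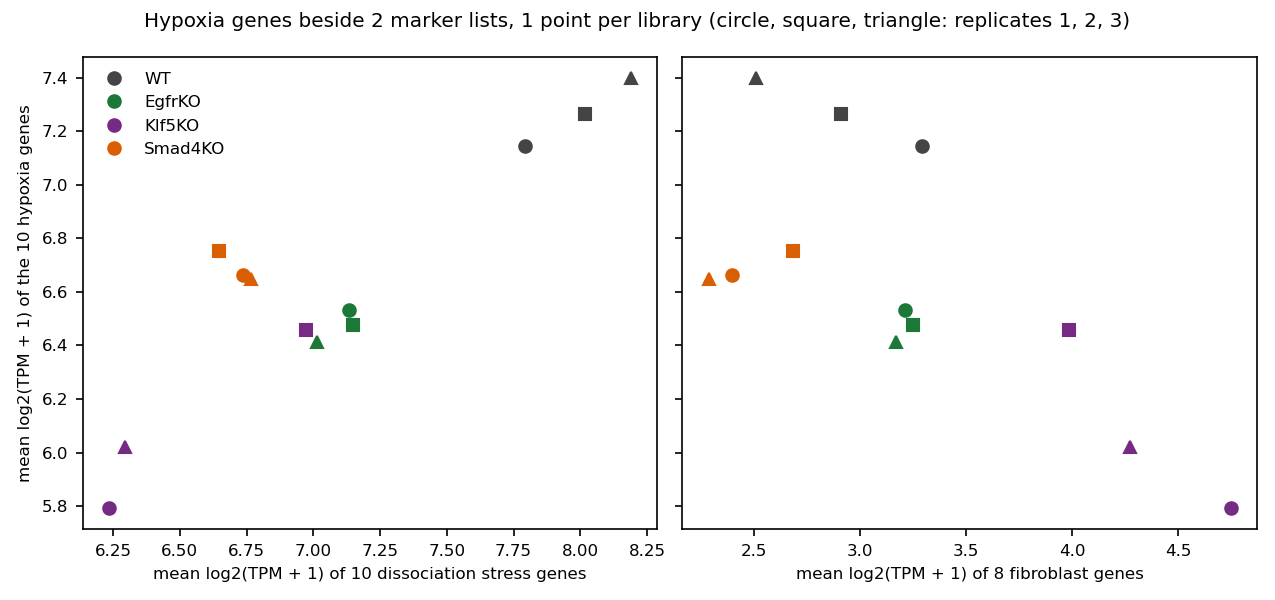
Mean log2(TPM + 1) of the 10 hypoxia genes (vertical axis) against that of 10 dissociation stress genes (left) and of 8 fibroblast genes (right, both horizontal axes), with 1 point per library coloured by genotype label. WT lies apart from all knockout libraries on the stress axis (7.79 to 8.19 against 6.23 to 7.15), and the libraries labelled Klf5KO lie apart on the fibroblast axis.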

How the data were processed

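RNA was sequenced from 12 libraries of sorted tumour cells, and the authors deposited their TPM values, by gene symbol, in a single table. Per the submitters' processing notes it was made with Salmon and the mm10 build; the version, the transcript annotation, and whether the quantification used strand are not stated in the labels. Columns of deposited TPM sum to 1000000, so read depth cannot be recovered and precision is judged from the spread of 3 libraries.

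Column names gave the sample, and its labels gave the genotype. The log2(TPM + 1) values computed from the deposited TPM of 13662 genes that reached a TPM of 1 in 3 or more libraries were fitted with limma 3.58.1 in R 4.3.3, with 4 genotype means over all 12 libraries, eBayes and a trend in the spread. Of 6 contrasts, the 3 against WT share its libraries. Tests are two-sided, with Benjamini-Hochberg adjustment within a contrast and a threshold of 0.05. The log2(TPM + 1) scale understates changes of low genes. The limma fit was also run on simulated data with few changed genes, in EgfrKO only. That setting differs from these data, where many genes were called, so it does not test the calls here. Gene positions are from GENCODE M21 and promoter windows from RefSeq (GRCm38.p6), both of the assembly that mm10 names.

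The 10 genes, the other lists and the tests were chosen with earlier results of these data known, so no list is independent evidence of its direction. Named besides the 10 are Egfr, Klf5 and Smad4, up to 3 called genes per list and contrast with WT with the largest change and a mean TPM of at least 5, the 2 nearest profiles per gene, and the 2 most abundant markers of a cell type; other genes were chosen after their values were seen, as stated or to complete a count. Alternatives were other pseudocounts, filters and scalings, leaving out the 20 most abundant genes, no trend, a fit of the 2 groups compared, a replicate block, 3 marker covariates, a minimum fold change, and omission of each library in turn.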

Additional observations from a re-analysis of the deposited data

How the results depend on the processing

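Replicate numbers did not pair the libraries: deviations of same-numbered libraries correlated between -0.15 and 0.12 in 18 pairs, 1 of them over 0.1, and those of different numbers between -0.13 and 0.17 in 36 pairs, 2 over 0.1. With the replicate block the counts of hypoxia genes lower and higher were 8 and 0, 9 and 0, and 7 and 1 against WT, and 5 and 1, 2 and 4, and 1 and 6 for Klf5KO against EgfrKO, Smad4KO against EgfrKO and Smad4KO against Klf5KO, the same counts as without it. Depth is unknown, so no limit of detection is given, and 3 libraries a group limit the precision.

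With each library left out in turn, the counts against WT were 8 to 10 lower in EgfrKO and 9 to 9 lower in Klf5KO. In Smad4KO they were 6 to 8 lower and 0 to 2 higher. Of the 13662 tested genes, the same fits called 1319 to 1724, 1345 to 1538 and 2042 to 2462 lower in these groups. They called 3666 to 4530 higher in Smad4KO. Between knockouts, hypoxia gene counts were 4 to 7 lower and 1 to 1 higher for Klf5KO against EgfrKO. All tested genes gave 1655 to 2018 and 4759 to 5547. For Smad4KO against EgfrKO the counts were 1 to 2 lower and 3 to 4 higher, beside 1836 to 2694 and 1536 to 2074. For Smad4KO against Klf5KO they were 1 to 3 lower and 5 to 7 higher, beside 5609 to 6197 and 2265 to 2518. The count higher in Smad4KO than in WT was 0 without WT replicate 1 or Smad4KO replicate 2, by the loss of Egln3, and 2 without Klf5KO replicate 2. The count lower in Smad4KO than in EgfrKO was 1 without EgfrKO replicate 1 or 3, or Smad4KO replicate 1 or 3, and the count lower in Smad4KO than in Klf5KO was 3 without Klf5KO replicate 1. Signs of changes near 0 turned as well: in Smad4KO against EgfrKO, Vegfa took -0.0904 to 0.0210 and Adm -0.107 to 0.0298, Slc2a1 in Klf5KO against EgfrKO took -0.0290 to 0.177, and Hif1a in Klf5KO against WT took -0.0488 to 0.0831.

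After median-of-ratios scaling, 0 genes were higher in Smad4KO than in WT and 0 in Klf5KO than in EgfrKO (limma gave 1 in each at an unadjusted p under 0.05), and 1 was lower in Smad4KO than in EgfrKO. Directions turned for Hif1a in Klf5KO against WT (-0.32; -0.19 after quantile normalization and -0.0028 without the 20 most abundant genes), Pdk1 in Klf5KO against EgfrKO (-0.12; -0.13 after quantile normalization), Slc2a1 in Klf5KO against EgfrKO (-0.12) and in Smad4KO against Klf5KO (0.0666), and Vegfa and Adm in Smad4KO against EgfrKO (0.0224 and 0.0183). A fit of only the 2 groups compared gave 10 lower in EgfrKO than in WT, where 1645 of 13662 tested genes were lower. It gave 2 higher in Smad4KO than in WT, where 4231 of 13662 were higher. With a fold change of at least 1.5, 0 were higher in Smad4KO than in WT and 0 higher in Klf5KO than in EgfrKO. In Smad4KO 0 were lower and 2 higher than in EgfrKO. Such counts are fewer by construction, and the share of all genes at that fold change was not computed.

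With the dissociation stress covariate the counts were 3 lower in EgfrKO, 0 lower in Klf5KO and 0 lower and 2 higher in Smad4KO against WT, 0 lower and 2 higher for Klf5KO against EgfrKO (8.51% and 24.8% of all genes), 1 lower and 5 higher for Smad4KO against EgfrKO (14.8% and 11%) and 3 lower and 5 higher for Smad4KO against Klf5KO (43% and 17.7%). Its changes against WT turned upward for Adm (0.0861), Egln3 (0.43) and Ankrd37 (0.70) in EgfrKO, for Egln3 (0.21), Bnip3 (0.22) and Ankrd37 (0.73) in Klf5KO, and for Vegfa (0.20), Adm (0.60), Ndrg1 (0.23), Ankrd37 (0.88) and Pdk1 (0.0626) in Smad4KO. Between knockouts they turned for Ndrg1 (0.10), Bnip3 (0.27) and Ankrd37 (0.0346) in Klf5KO against EgfrKO, and for Vegfa (0.29), Adm (0.51), Ankrd37 (0.18) and Slc2a1 (0.0913) in Smad4KO against EgfrKO. With the fibroblast covariate 2 were lower in Klf5KO (2.69% of all genes) and 0 higher in Smad4KO (32.6%) against WT. For Klf5KO against EgfrKO 0 were lower and 0 higher (6.26% and 11.4%), and limma gave 0 lower and 2 higher at an unadjusted p under 0.05. In Smad4KO 1 was higher than in EgfrKO (12.7%) and 1 than in Klf5KO (7.03%). Calls over all genes fell from 55.2% to 17.7% for Klf5KO against EgfrKO. This covariate set Klf5KO apart from all other groups, so its effect cannot be told apart from that label. Signs turned for Ankrd37 in Klf5KO against WT (0.14), for Ndrg1 (0.25), Bnip3 (0.41) and Ankrd37 (0.30) in Klf5KO against EgfrKO, and for Vegfa (-0.44), Adm (-0.30), Ndrg1 (-0.0358) and Ankrd37 (-1.27) in Smad4KO against Klf5KO. With the leukocyte covariate 0 were lower and 1 higher in Smad4KO than in EgfrKO (7.88% and 6.09% of all genes), 3 were higher in Smad4KO than in Klf5KO (11.9%), and Vegfa in Smad4KO against EgfrKO read 0.0728. Calls over all genes dropped too with this covariate, from 33.2% to 14% for Smad4KO against EgfrKO and from 63.8% to 43.5% for Smad4KO against Klf5KO. Several of these lost calls kept their size with a larger SE: against EgfrKO, Bnip3 was -0.49, Egln3 0.86 and Ndrg1 0.56, and against Klf5KO, Adm was 1.11 and Vegfa 0.76. For these settings the cause was not tested. Of the changes against WT of single genes, 343 of 390 under other settings and 348 of 360 with a library left out kept their direction and their side of the threshold. The settings differed widely in this. Over all 6 contrasts, 60 of 60 changes kept both with either other pseudocount. With the stress covariate 19 did, with the fibroblast covariate 31, and with the leukocyte covariate 48.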

Other observations

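Paralogues of the hypoxia genes were called in both directions. Of 21 genes in the same families, 13 were tested, and 4 were lower and 6 higher in EgfrKO, 3 and 4 in the libraries labelled Klf5KO, and 5 and 6 in Smad4KO, beside 12%, 11.1% and 17.4% of all genes lower and 31.3%, 55.2% and 32.2% higher, with medians of 0.12, 0.01 and 0.03 against WT by limma. After scaling the counts were 5 and 4, 7 and 1, and 5 and 6. The scaled shares of all genes were 22.2%, 27.5% and 24.7% lower and 18%, 24.6% and 25.1% higher. Car2, a carbonic anhydrase of the cytoplasm, was 26.0 ± 3.78 TPM in WT (SD, n = 3) and 230 ± 10.2 in EgfrKO. It was 24.9 ± 7.19 in the libraries labelled Klf5KO and 346 ± 15.2 in Smad4KO. In EgfrKO Car2 thus rose where Car9 fell. In Smad4KO it rose where Car9 did not pass in the fit of all 4 groups. The log2 fold change of Car2 was 3.10 in EgfrKO (limma adjusted p = 2.0e-07) and 3.69 in Smad4KO (1.7e-08).

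Among the pyruvate dehydrogenase kinases, Pdk2 rose by 1.32 in Smad4KO (limma adjusted p = 5.5e-06), from 6.26 ± 0.736 to 17.1 ± 1.09 TPM, and Pdk3 fell by 0.94 there (2.8e-04), from 10.1 ± 0.623 to 4.83 ± 0.773, while Pdk1 moved by -0.17 without passing the test as deposited. Pdk3 also fell by 0.80 in EgfrKO (0.0013). Ndrg3 rose by 0.50 in EgfrKO (0.0029) and by 0.52 in the libraries labelled Klf5KO (9.7e-04), where Ndrg1 fell and Ndrg2 fell by 0.45 (5.7e-04); the increase of Ndrg3 in the latter did not pass after scaling.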
